A study of Mus musculus with 12 samples.

Results

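Gene expression was compared in whole neonatal mouse cortex between 4 libraries in which both genes for histone H3.3, H3f3a and H3f3b, had been targeted with Emx1-Cre (dKO-E) and 4 libraries labelled control. These 8 libraries were taken by their titles from the 12 RNA libraries of the study, all from postnatal day 0 (P0), and every gene with a count was considered. The remaining 4 libraries carry the same conditional knockout of H3f3a and H3f3b driven by Neurod6-Cre (dKO-N), and were used to estimate the spread and for 1 direct comparison at the end. No drug or other treatment is named for any group, and the sources used here do not give the alleles, Cre status or sex of the control animals. Ribosomal RNA was depleted from the total RNA, and libraries were made by ClickSeq, in which adapters are joined to randomly terminated cDNA by click chemistry. No label ties a library to an animal, so the tests measure the spread between libraries, which may be technical. The comparison asks what differs in the newborn cortex when H3.3 is deleted from progenitors onward.

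Histone H3.3 is the H3 variant that is placed in chromatin independently of DNA replication, by chaperones that include HIRA and the DAXX and ATRX pair. Dividing cells can also draw on the canonical H3 proteins made in S phase, while a neuron that has left the cell cycle depends on the variant for new histone H3. Emx1 is expressed in the dorsal progenitors of the forebrain, so Emx1-Cre acts in radial glia and in what they produce, which is the excitatory neurons and later the glia of the cortex. Interneurons from the ventral forebrain, microglia and blood vessels come from other lineages and keep their H3.3 genes in this model, although they are part of the tissue that was lysed. The Neurod6 driver acts later, in new excitatory neurons.

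The 8 libraries held between 1452515 and 3083599 counts in genes, so that 3 counts, taken as the floor, corresponded to 1.06 to 1.96 CPM, the count of a gene scaled to library size by TMM. The targeted H3f3a checked the labels first. Its levels under the control label were 17.7, 117, 16.4 and 121 CPM, in replicate order, and under the dKO-E label 30, 28.4, 25.8 and 22.9 CPM. Control 2 and 4 lay above every dKO-E library. Control 1 and 3 lay below every dKO-E library and so went against their label in this gene. With all 4 controls in the fit, H3f3a did not pass the test (log2 fold change -1.28, SE 0.669, edgeR adjusted p = 0.228). In a principal component analysis of all genes tested, control 1 and 3 lay at -28.54 and -25.38 on the first axis. Control 2 and 4 were at -27.94 and -27.4 there, and the dKO-E libraries at 18.27 to 20.54. Why H3f3a was low in control 1 and 3 was not tested. Groups are therefore named by label, each direction below is a direction between labels, and calls that are lost without control 1 and 3 are given with that value. Y-linked genes summed to 405 and 153 CPM in dKO-E 3 and 4 and to 1.96 CPM or less in the other 6 libraries. In dKO-E 3 and 4 Xist, the RNA of the inactive X, was at 0.781 and 2.24 CPM, against 1097 to 1263 CPM in the others. The dKO-E 1 library stood apart in genes of the brain coverings and of immune cells. Its summed level of meningeal and fibroblast genes was 344 CPM against 180 to 259 CPM in the other 7 libraries, and that of microglia and macrophage genes was 67.3 CPM against 28.2 to 45.4 CPM. Markers of cortical excitatory neurons were present throughout, and Bcl11b, a gene of deep-layer neurons, was at 207 to 363 CPM. The defining marker Gbx2 of thalamus was at 0.517 CPM or less, and Ttr of choroid plexus at 1.31 CPM or less. Of the radial glia markers, Hes5 was at 0.391 to 2.43 CPM and Sox2, which lies inside the Sox2ot gene, had no count in any of the 8 libraries.

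Promoters of 3 strongly raised and 3 strongly lowered genes are shown because their CpG content ranges widely among the genes described below. Each is the stretch of 250 bases before the gene's start in RefSeq on the GRCm38.p6 build, written 5′ to 3′ on the gene's strand with every CG dinucleotide in capitals. Ttc7 is at chr17:87282636-87282885 (plus strand), Smad6 at chr9:64022060-64022309 (minus) and Itprid1 at chr6:55836768-55837017 (plus), and all 3 genes were higher in dKO-E. Nr4a2 is at chr2:57124004-57124253 (minus), Kcnj2 at chr11:111065914-111066163 (plus) and Trpc5 at chrX:144688181-144688430 (minus), and these 3 were lower. The RefSeq start of Itprid1 differs from the GENCODE start used for the positions below, and the last 123 bases of its window lie inside the gene as positioned there.
Ttc7: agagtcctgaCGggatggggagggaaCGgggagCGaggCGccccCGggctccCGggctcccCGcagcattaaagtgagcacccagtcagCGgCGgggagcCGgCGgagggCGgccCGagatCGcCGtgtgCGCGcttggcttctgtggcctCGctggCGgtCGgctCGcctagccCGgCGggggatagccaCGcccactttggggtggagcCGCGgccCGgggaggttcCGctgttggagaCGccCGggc
Smad6: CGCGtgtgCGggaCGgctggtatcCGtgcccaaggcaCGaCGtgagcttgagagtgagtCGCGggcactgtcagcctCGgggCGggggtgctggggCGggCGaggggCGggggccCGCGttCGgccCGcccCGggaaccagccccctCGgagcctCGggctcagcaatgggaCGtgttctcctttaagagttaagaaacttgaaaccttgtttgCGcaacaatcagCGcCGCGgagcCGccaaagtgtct
Itprid1: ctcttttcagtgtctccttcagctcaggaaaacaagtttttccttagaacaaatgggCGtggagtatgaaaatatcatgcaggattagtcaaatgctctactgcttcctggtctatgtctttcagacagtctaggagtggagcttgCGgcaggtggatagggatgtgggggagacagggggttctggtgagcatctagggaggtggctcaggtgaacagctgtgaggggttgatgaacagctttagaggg
Nr4a2: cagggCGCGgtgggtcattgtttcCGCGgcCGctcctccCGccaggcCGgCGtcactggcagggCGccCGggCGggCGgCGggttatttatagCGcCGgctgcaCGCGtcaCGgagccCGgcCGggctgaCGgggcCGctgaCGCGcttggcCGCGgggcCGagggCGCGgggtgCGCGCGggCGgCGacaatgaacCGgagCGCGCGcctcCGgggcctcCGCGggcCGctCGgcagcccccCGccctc
Kcnj2: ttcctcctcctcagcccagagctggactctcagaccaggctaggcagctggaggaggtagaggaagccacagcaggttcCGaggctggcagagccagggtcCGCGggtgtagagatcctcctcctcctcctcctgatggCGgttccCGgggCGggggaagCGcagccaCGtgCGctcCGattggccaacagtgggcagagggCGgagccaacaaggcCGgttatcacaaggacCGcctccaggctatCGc
Trpc5: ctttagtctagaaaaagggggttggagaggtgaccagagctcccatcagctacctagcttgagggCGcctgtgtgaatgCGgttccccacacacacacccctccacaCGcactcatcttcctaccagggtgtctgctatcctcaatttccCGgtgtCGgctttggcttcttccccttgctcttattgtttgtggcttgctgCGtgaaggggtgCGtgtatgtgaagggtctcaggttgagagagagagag
The raised genes held 30 (Ttc7), 27 (Smad6) and 2 (Itprid1) CG dinucleotides, and the lowered genes held 44 (Nr4a2), 14 (Kcnj2) and 7 (Trpc5). Across the 20 largest rises 17 genes were matched to a promoter and held 2 to 32, and across the 20 largest falls 16 were matched and held 0 to 44. Colec12, Psg16 and Greb1l among the rises, and Klhl14, Slc26a7, Prkch and Gipr among the falls, had no match. The GC box GGGCGG, searched on both strands, was in the windows of Ttc7, Smad6, Nr4a2 and Kcnj2 and in 32.7% of the 32851 promoter windows of this length. The TATA motif TATAAA, also searched on both strands, was in the window of Nr4a2 and in 12.4%. In Nr4a2 it was on the opposite strand only, where the printed letters read tttata. Among the promoters matched to genes tested these shares were 61.6% for the GC box and 5.7% for the TATA motif. A match is a description of the letters in this window. Promoters were matched for 78.1% of the genes tested, below the 80% needed, so a comparison of promoter content between raised, lowered and other genes was void and is not given.

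Of 11076 genes tested, 2238 differed between dKO-E and control, which is 20.2% of them. Of these 1120 were higher in dKO-E (10.1% of genes tested) and 1118 lower (10.1%), at an edgeR adjusted p below 0.05. Log2 fold changes are dKO-E minus control, so a positive value is higher in dKO-E. A signed value in brackets after a gene's name is its log2 fold change, and gene positions are on mm10 from GENCODE M21. The library values of the 2 groups did not overlap for 1934 of the 2238, and for 2819 of all genes tested (25.5%). A difference of 2-fold or more was reached by 259 of the higher genes and 202 of the lower, and one of 4-fold or more by 39 and 29. The median absolute log2 fold change of the called genes was 0.62, and that of all genes, with sign, was 0.01. Scaling by library totals in place of TMM moved this median to 0.14, and 73.9% of the genes then called were higher, against 50.0%. Without control 1 and 3 the count was 1215, of which 1145 were among the 2238, and without dKO-E 3 and 4 it was 1225, of which 1156 were. In whole tissue, fewer cells of a type and less RNA per cell cannot be told apart.

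The higher and lower genes differed in their usual level. Among genes with a mean control level of 94.9 CPM or more, the top of 5 equal bins, 26.3% were lower in dKO-E and 8.8% were higher. In the lowest bin, up to 9.34 CPM, 1.2% were lower and 11.4% higher. The genes raised 2-fold or more had a median control level of 4.76 CPM, those lowered 2-fold or more 46.0 CPM, and all genes tested 28.7 CPM. A gene that is low in control could pass the filter on low counts through its dKO-E values alone, and a fall is harder to detect near the floor, so these shares describe the calls and carry no test. By the length of the whole gene, both directions were more frequent among long genes. The shares were 5.6% higher and 4.3% lower in the shortest of 5 bins, up to 11.6 kb, and 16.5% higher and 23.5% lower in the longest, from 99.0 kb. Whether introns contributed to the counts was not tested.

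**Figure D1:**
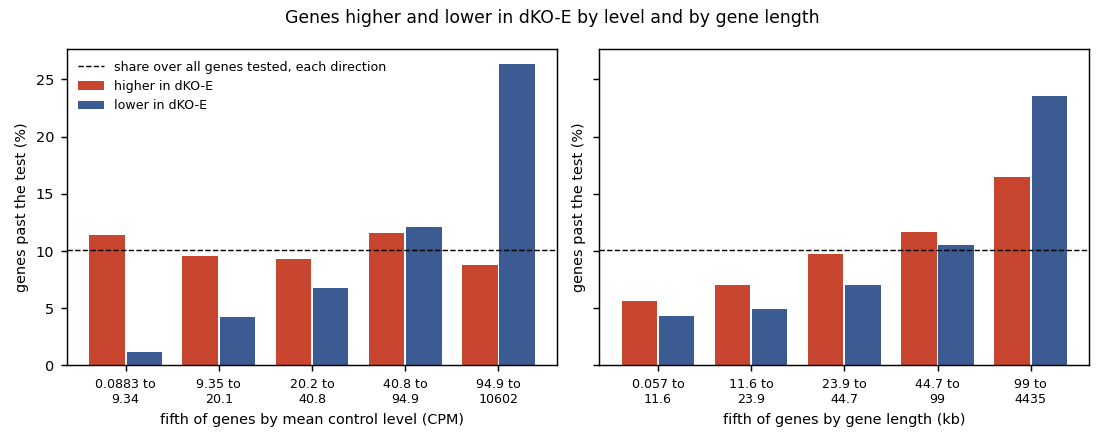
Percentage of genes past the test (y axis) that were higher (red) or lower (blue) in dKO-E, for 5 equal bins of the 11076 genes by mean control level in CPM (left) and by gene length in kb (right), with the dashed line at the share over all genes, 10.1% in each direction. Lower genes reached 26.3% in the bin of highest control level, and both directions rose from the bin of shortest to that of longest genes.

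Genes that were near the floor or low in control and clearly present in dKO-E led the rises. Colec12, a scavenger receptor of the collectin family (chromosome 18, 9707595 to 9882644), had control levels of 5.65, 4.79, 6.05 and 2.58 CPM (replicates 1 to 4 in order, here and below) against 66.0, 70.1, 109 and 83.3 CPM in dKO-E. The lowest dKO-E library was over 10-fold above the highest control (log2 fold change 4.06, SE 0.220, adjusted p = 9.94e-16). Ttc7, a scaffold that anchors a lipid kinase complex at the plasma membrane (chromosome 17, 87282886 to 87381769), was at 14.8, 13.3, 12.1 and 12.4 CPM in control and 137, 171, 273 and 263 CPM in dKO-E. Control values lay within 3 CPM of each other, while dKO-E 3 and 4 were above dKO-E 1 and 2 (log2 fold change 3.99, SE 0.26, adjusted p = 1.81e-07). Itprid1, a protein with an inositol trisphosphate receptor-interacting domain (chromosome 6, 55836895 to 55978735), was at 5.65, 12.8, 6.05 and 8.78 CPM in control against 64.7, 62.4, 71.1 and 63.8 CPM in dKO-E. The dKO-E values lay within 9 CPM of each other, and the lowest was more than 4-fold above the highest control (log2 fold change 3.03, SE 0.297, adjusted p = 9.00e-07).

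Several genes of signalling and of the cell surface were among the next largest rises. Smad6, an inhibitor of BMP signalling (chromosome 9, 63953076 to 64022059), was at 3.88, 2.66, 2.59 and 1.03 CPM in control and 15.0, 21.5, 19.1 and 13.4 CPM in dKO-E. Every dKO-E value exceeded the highest control by more than 3-fold (log2 fold change 2.70, SE 0.321, adjusted p = 3.56e-08). Slc24a4, a potassium-dependent sodium and calcium exchanger, was at 8.48, 6.39, 13.4 and 11.9 CPM in control and 53.6, 53.1, 66.8 and 61.0 CPM in dKO-E, with no overlap (log2 fold change 2.54). Tpcn2, an ion channel of endolysosomes, rose from 3.34 ± 0.975 to 19 ± 2.29 CPM (mean ± SD, n = 4 here and below, log2 fold change 2.48), and Tmem176b, a membrane protein best known from immune cells, from 2.37 ± 0.926 to 17.4 ± 4.44 CPM (2.83). Lmcd1, a LIM domain protein (2.69), Cfap61, a protein of motile cilia (2.58), Col5a1, a fibrillar collagen chain (2.16), Hpcal1, a neuronal calcium sensor (2.10), Gpc3, a glypican (1.98), Rin3, an activator of RAB5 GTPases (1.98), and Hk2, a hexokinase (1.87), rose with adjusted p of 5.63e-05 or less. The growth inhibitor gene Btg3 was at log2 fold change 2.39 with an adjusted p of 0.00413, and its call was lost without control 1 and 3 (adjusted p = 0.0964).

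A group of genes that control cortex expresses at higher levels rose as well. Prkd1, a protein kinase of the protein kinase D family (chromosome 12, 50341231 to 50649098), was at 113, 79.3, 81.6 and 96.1 CPM in control and 444, 472, 479 and 402 CPM in dKO-E. All 4 dKO-E libraries were more than 3-fold above all 4 controls (log2 fold change 2.27, SE 0.109, adjusted p = 8.84e-18). Nkain3, a partner of the sodium pump (chromosome 4, 20118874 to 20778866), was at 753, 742, 703 and 638 CPM in control and 1762, 2086, 2060 and 1920 CPM in dKO-E. All dKO-E libraries were more than 2-fold above all controls (log2 fold change 1.46, adjusted p = 1.69e-14). Pde1c, a calcium- and calmodulin-dependent phosphodiesterase, was at 53.7, 44.7, 47.5 and 52.7 CPM in control and 159, 176, 177 and 177 CPM in dKO-E. The groups were separated by a gap wider than the range of either one (log2 fold change 1.79, SE 0.112, adjusted p = 4.90e-15). Sphkap, which anchors protein kinase A (1.53), Cacnb2, a calcium channel subunit (1.46), Cdh4, also called R-cadherin (from 499 ± 38.1 to 1172 ± 185 CPM, 1.23), and Greb1l (1.78) rose with adjusted p of 7.68e-12 or less. Nrp2, a semaphorin receptor, was less even, at 59.7, 43.7, 120 and 79.6 CPM in control and 306, 233, 233 and 296 CPM in dKO-E. Its groups did not overlap, but without control 1 and 3 or without dKO-E 3 and 4 its call was lost (log2 fold change 1.80, adjusted p = 0.0120, against 0.0537 and 0.0758).

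**Figure D2:**
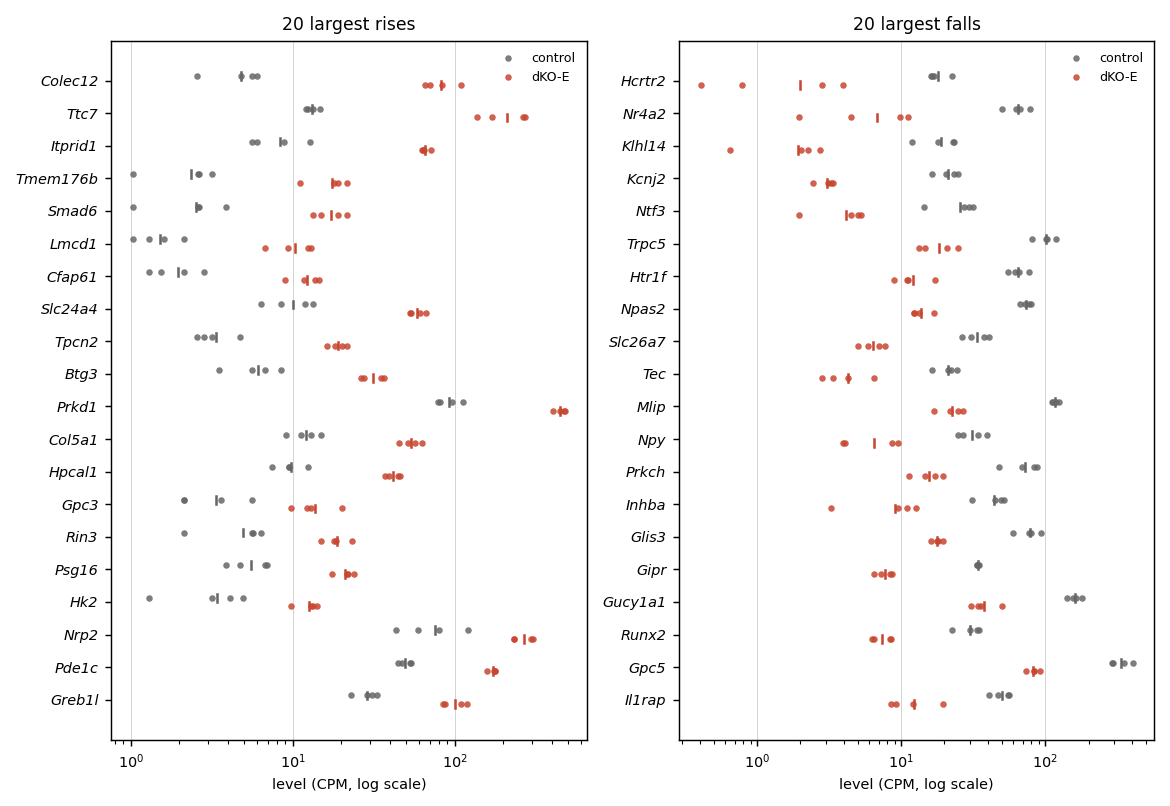
Level in CPM (log axis) of the 20 genes with the largest rise (left) and the 20 with the largest fall (right) in each of the 4 control (grey) and 4 dKO-E (red) libraries, with short bars at the group means. In every gene shown the points of the 2 groups do not overlap, as the rule for naming them required.

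The largest falls included receptors, channels, transcription factors and signalling proteins. Hcrtr2, an orexin receptor (chromosome 9, 76225880 to 76323856), was at 16.2, 22.4, 16.8 and 16.5 CPM in control and 3.92, 0.405, 0.781 and 2.80 CPM in dKO-E. It had fewer than 3 counts in 2 of the dKO-E libraries, so the size of its fall is imprecise (log2 fold change -3.34, SE 0.394, adjusted p = 2.85e-08). Nr4a2, an orphan nuclear receptor that marks subplate neurons (chromosome 2, 57106830 to 57124003), was at 78.8, 67.1, 63.1 and 50.1 CPM in control and 1.96, 4.46, 9.77 and 11.2 CPM in dKO-E. Its lowest control library was over 4-fold above its highest dKO-E library (log2 fold change -3.20, SE 0.244, adjusted p = 7.62e-11). Kcnj2, the inward rectifier potassium channel Kir2.1 (chromosome 11, 111066164 to 111076821), was at 20.5, 23.4, 16.4 and 24.8 CPM in control and 3.27, 2.43, 3.13 and 3.36 CPM in dKO-E. The dKO-E libraries lay within 1 CPM of each other, below every control (log2 fold change -2.79, SE 0.280, adjusted p = 7.90e-10).

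Trpc5, a receptor-operated cation channel (chromosome X, 144381671 to 144688180), was at 118, 103, 81.6 and 102 CPM in control and 24.8, 14.6, 13.3 and 20.7 CPM in dKO-E. Control 3 was the lowest control and still more than 3-fold above the highest dKO-E library (log2 fold change -2.52, SE 0.192, adjusted p = 1.75e-10). Npas2, a transcription factor related to the clock protein CLOCK (chromosome 1, 39193731 to 39363236), was at 79.8, 77.2, 66.9 and 72.8 CPM in control and 17.0, 12.2, 13.3 and 12.3 CPM in dKO-E. Both groups were tight and far apart (log2 fold change -2.46, SE 0.159, adjusted p = 1.13e-14). Ntf3, the neurotrophin NT-3 (-2.66), Htr1f, a serotonin receptor (-2.46), Slc26a7, an anion exchanger (-2.37), Tec, a tyrosine kinase (-2.35), Npy, the neuropeptide Y gene (-2.23), Prkch, a protein kinase C (-2.22), Glis3, a zinc finger transcription factor (-2.14), Gipr, the receptor of an incretin hormone (-2.12), Runx2, a transcription factor best known from bone (-2.06), and Il1rap, an interleukin receptor subunit with a role in synapse adhesion (-2.03), fell with adjusted p of 2.59e-06 or less.

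Mlip, a lamin-interacting protein gene, was at 124, 118, 114 and 111 CPM in control and 17.0, 24.7, 27.0 and 21.8 CPM in dKO-E. Each control was more than 4-fold above each dKO-E library (log2 fold change -2.33, SE 0.131, adjusted p = 3.67e-16). Pcsk2, the proprotein convertase that processes neuropeptides (chromosome 2, 143546156 to 143816285), was at 333, 321, 310 and 312 CPM in control and 90.8, 82.7, 93.8 and 90.6 CPM in dKO-E. Each control was more than 3-fold above each dKO-E library (log2 fold change -1.84, SE 0.092, adjusted p = 9.09e-18). Other genes with high control levels fell as well. Gpc5, a glypican, went from 336 ± 53.2 to 83.0 ± 7.37 CPM (-2.03), and Cdh12, a type II cadherin, from 260 ± 35.5 to 64.5 ± 21.6 CPM (-2.0). Dok5, an adaptor of receptor tyrosine kinases, went from 399 ± 19 to 106 ± 14.6 CPM (-1.90). Efna5, an ephrin ligand (-1.74), Zfp385b (-1.69) and Hs6st2, a heparan sulfate sulfotransferase (-1.60), fell with adjusted p of 2.57e-06 or less.

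Transcription factors of upper-layer neurons, which connect the cortical areas and hemispheres, were lower in dKO-E. Of 11 tested, 10 fell and none rose, with a median log2 fold change of -0.90 against 0.01 for all genes, and 9 fell without control 1 and 3. Over all genes tested 10.1% fell and 10.1% rose, the shares to set beside this list and those below. Pou3f1, a POU domain factor, was at 17.7, 14.9, 18.1 and 21.7 CPM in control and 5.23, 5.27, 6.25 and 6.71 CPM in dKO-E. Every control library was more than 2-fold above every dKO-E library (log2 fold change -1.61, SE 0.261, adjusted p = 1.25e-05). Cux1, a homeodomain factor of upper-layer neurons, was at 523, 541, 526 and 519 CPM in control and 227, 262, 263 and 284 CPM in dKO-E. The control values were close together and lay above every dKO-E value (log2 fold change -1.02, SE 0.099, adjusted p = 2.96e-10). Rorb, a nuclear receptor of layer 4, went from 335 ± 34.5 to 132 ± 17.0 CPM (-1.33, adjusted p = 2.74e-13). Pou3f2, a relative of Pou3f1, fell as well (-0.79). Lhx2 did not pass (-0.25, adjusted p = 0.113).

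Transcription factors of deep-layer neurons moved in both directions. Of 18 tested, 11 fell and 3 rose (median -0.57), and without control 1 and 3 these counts were 10 and 3. Bcl6, a repressor that promotes neuronal differentiation, was at 21.9, 18.1, 29.8 and 16.0 CPM in control and 9.80, 7.70, 5.86 and 9.51 CPM in dKO-E. The highest dKO-E library remained under the lowest control (log2 fold change -1.43, SE 0.249, adjusted p = 3.78e-05). Foxp2, a factor of layer 6 neurons, was at 419, 408, 460 and 394 CPM in control and 254, 194, 190 and 220 CPM in dKO-E, without overlap (-0.98, adjusted p = 6.54e-05). Etv1, a factor of layer 5 (-1.03), and Tox (-0.91) fell to a similar extent. The master regulators of subcerebral and corticothalamic identity were not among the genes that fell. Fezf2 was at 21.4 ± 3.57 CPM in control and 19.9 ± 1.34 CPM in dKO-E (adjusted p = 0.790), Tbr1 at 150 ± 13.2 and 181 ± 26.7 CPM (adjusted p = 0.0800) and Sox5 at 1887 ± 113 and 1957 ± 172 CPM (adjusted p = 0.767). Bcl11b, which acts with Fezf2 in layer 5, rose from 256 ± 33.4 to 335 ± 20.7 CPM (log2 fold change 0.38, adjusted p = 0.00371). Members of the nuclear factor I family were split, as Nfib (0.56) and Nfia (0.38) rose and Nfix (-0.61) fell, and these were singled out together with Fezf2, Tbr1, Sox5 and Bcl11b after their values were seen.

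**Figure D3:**
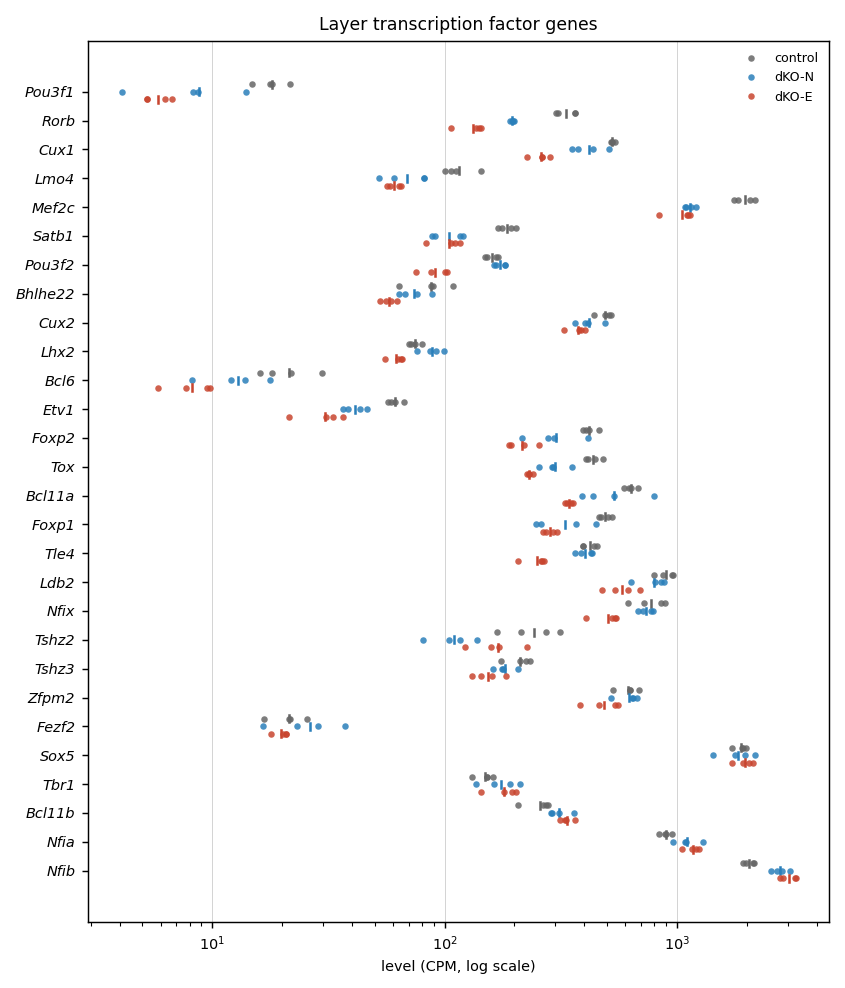
Level in CPM (log axis) of 10 upper-layer transcription factor genes (top, Pou3f1 to Lhx2) and the 18 deep-layer ones (Bcl6 to Nfib) in the 4 control (grey), 4 dKO-N (blue) and 4 dKO-E (red) libraries, each block ordered by log2 fold change of dKO-E against control, with short bars at the means. The red points of Pou3f1 lie at 5.23 to 6.71 CPM, left of all grey points, and those of Nfib at 2774 to 3243 CPM, right of them.

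Genes that carry out layer functions were also lower more often than higher. Of 18 upper-layer effector genes, 8 fell and 3 rose (median -0.18). Inhba, which encodes an activin subunit, was at 44.5, 51.7, 49.2 and 31.0 CPM in control and 3.27, 12.6, 10.9 and 9.51 CPM in dKO-E. The dKO-E 1 library was the lowest, and the groups were more than 2-fold apart (-2.20, SE 0.227, adjusted p = 3.81e-09). Rasgrf2, an exchange factor for Ras, went from 154 ± 22.0 to 50.5 ± 5.12 CPM (-1.59), and Ptn, the growth factor pleiotrophin, from 576 ± 33.0 to 223 ± 12.9 CPM (-1.36). Of 11 layer 5 effector genes, 6 fell and 3 rose (median -0.69). They included the adhesion gene Cntn6, from 218 ± 15.6 to 64.7 ± 12.0 CPM (-1.75), while Chst8, a GalNAc sulfotransferase, rose from 24.3 ± 4.99 to 47.8 ± 6.15 CPM (1.00). Of 15 layer 6 effector genes, 8 fell and 2 rose (median -0.33), and without control 1 and 3 the counts were 6 and 0. The neurotensin receptor gene Ntsr1, a marker of corticothalamic neurons, was at 67.5, 70.8, 61.8 and 58.4 CPM in control and 16.3, 28.8, 26.6 and 26.8 CPM in dKO-E. Its groups were separated more than 2-fold (-1.36, SE 0.152, adjusted p = 8.91e-09). Cdh18 was more variable in dKO-E, with 99.3, 32.4, 31.3 and 64.9 CPM against 215 ± 24.7 CPM in control (-1.99, adjusted p = 0.00195). Sulf1, an extracellular sulfatase, fell as well (-1.42). Of 11 genes of subplate neurons, the transient lowest layer of the cortex, 4 fell and 3 rose, and 4 and 1 without control 1 and 3. Abca8a, a lipid transporter, was among the falls with Nr4a2 (-1.67), and Inpp4b, a phosphoinositide phosphatase, rose from 92.3 ± 7.23 to 180 ± 8.09 CPM (0.96).

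Genes of progenitors were higher in dKO-E where they passed. Of 20 radial glia genes 7 rose and none fell (median 0.32), but without control 1 and 3 only 1 of the 20 rose, which was Notch2. The median in that fit, which also had fewer libraries, was 0.43. Notch2, a receptor that maintains progenitors (chromosome 3, 98013527 to 98150361), was at 43.4, 50.6, 43.2 and 39.3 CPM in control and 86.2, 84.7, 71.9 and 70.5 CPM in dKO-E. No dKO-E library fell below 70.5 CPM and no control exceeded 50.6 CPM (0.83, SE 0.128, adjusted p = 6.07e-06). Sox9, a transcription factor of glia and progenitors (0.76), and the serine synthesis gene Phgdh (0.65) lost their calls without control 1 and 3 (adjusted p = 0.153 and 0.0945). Their log2 fold changes in that fit were 0.79 and 0.71. Both calls were also lost when some single libraries were left out. Of 8 intermediate progenitor genes 4 rose and none fell (median 0.90), and 3 rose without control 1 and 3. Insm1, which promotes the formation of these cells, was at 12.7, 13.3, 11.2 and 21.7 CPM in control and 25.5, 37.7, 32.8 and 31.9 CPM in dKO-E. The groups were separated by a narrow gap, because control 4 stood above the other controls (1.16, SE 0.212, adjusted p = 1.06e-04). Eomes, the defining factor of intermediate progenitors, did not pass, at 5.61 to 11.9 CPM in control and 5.03 to 9.38 CPM in dKO-E (adjusted p = 0.677). Pax6, that of radial glia, was at 13.9 to 19.7 CPM and 18.2 to 28.7 CPM (adjusted p = 0.131).

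Cell cycle genes moved in few cases. Of 34 tested 2 were higher and 1 lower (8.82% called, median 0.19), and 0 and 1 without control 1 and 3 or without dKO-E 3 and 4. The lower one was Diaph3, a formin that acts in cytokinesis (-0.69, adjusted p = 0.00112). Of 13 genes of newborn neurons 4 fell and 2 rose, a balance that turned to 1 and 4 with library totals and to 1 and 1 without control 1 and 3. Neurod6, a basic helix-loop-helix factor of excitatory neurons, was at 136, 141, 154 and 132 CPM in control and 69.2, 66.0, 80.5 and 68.2 CPM in dKO-E. Every dKO-E library was below the lowest control (-0.98, SE 0.103, adjusted p = 2.14e-09). Among 18 p53 targets and apoptosis genes 3 rose (16.7% called, against 20.2% of all genes), and 1 without control 1 and 3 and none without dKO-E 3 and 4. Mdm2, the p53 inhibitor (0.57, adjusted p = 6.90e-04), passed without control 1 and 3 (adjusted p = 0.00242) and missed the threshold without dKO-E 3 and 4 (adjusted p = 0.0597).

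The histone system around H3.3 showed few changes. H3f3b was at 121, 76.7, 143 and 84.2 CPM in control and 170, 176, 180 and 167 CPM in dKO-E. All dKO-E libraries lay above all controls, so that this targeted gene was higher and not lower by whole-gene count (0.69, SE 0.138, adjusted p = 7.07e-04). The controls were split here too, with control 1 and 3 at 121 and 143 CPM and control 2 and 4 at 76.7 and 84.2 CPM. In H3f3b as in H3f3a, control 1 and 3 lay nearer to dKO-E than control 2 and 4 did. A whole-gene count does not resolve the deleted part, and processed copies of H3.3 genes exist in the genome. Totals of either gene therefore do not measure the deletion, and why H3f3b was higher was not tested. Of 11 H3.3 chaperone genes 2 rose and none fell (18.2% called, near the 20.2% of all genes). Dek, a chromatin protein linked to H3.3 assembly, rose from 53.2 ± 8.04 to 81.5 ± 9.06 CPM (0.61), and Asf1a, which hands histone H3 to other chaperones, from 14.2 ± 1.50 to 21.9 ± 1.94 CPM (0.62, adjusted p = 0.0188, and 0.0678 without control 1 and 3). Of 27 replication-coupled histone genes, which supply histones in S phase, 4 rose and none fell (14.8% called, median 0.49), and 1 rose without control 1 and 3. That list was led by Hist2h2ac, at 8.48, 7.99, 17.3 and 7.75 CPM in control and 23.5, 29.6, 20.3 and 30.2 CPM in dKO-E, where control 3 stood above the other controls but below every dKO-E library (1.30, adjusted p = 8.02e-04). Of 25 Polycomb subunit genes 1 rose and 1 fell, which became 6 and 0 with library totals, and of 36 H3 lysine methyltransferase and demethylase genes 1 rose and 2 fell, which became 8 and 1. Setd5, a chromatin regulator linked to intellectual disability, was the largest of these falls (-0.41, adjusted p = 0.00107). None of the 39 Hox cluster genes passed the filter on low counts.

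Synaptic genes that passed the test were mostly lower in dKO-E. Falls also outnumbered rises among all genes of the highest control level (26.3% lower, 8.8% higher) and among the longest genes (23.5% and 16.5%). Level and length were not accounted for in the counts of this or any other list. Of 35 presynaptic genes 15 fell and 1 rose (median -0.24), and without control 1 and 3 the counts were 9 and 2, without dKO-E 3 and 4 they were 9 and 0, and with library totals 9 and 5. Slc17a7, the vesicular glutamate transporter VGLUT1, was at 19.4, 16.0, 19 and 22.2 CPM in control and 8.49, 4.46, 7.03 and 7.83 CPM in dKO-E. The highest dKO-E library, at 8.49 CPM, lay below the lowest control, at 16.0 CPM (-1.49, SE 0.269, adjusted p = 6.60e-05). Unc13c, a priming factor of vesicles, fell from 66.0 ± 9.77 to 31.1 ± 1.10 CPM (-1.09), and Sv2c (-1.01) and Syt4 (-0.94), both vesicle proteins, fell as well. Of 29 postsynaptic genes 14 fell and 1 rose (median -0.25), and 9 and 1 without control 1 and 3 and 8 and 1 without dKO-E 3 and 4. Dlg2, the scaffold PSD-93 and one of the most abundant transcripts here (chromosome 7, 90476672 to 92449247), was at 4703, 3998, 4138 and 3909 CPM in control and 1485, 1407, 1433 and 1464 CPM in dKO-E. It was lower by more than 2-fold between any 2 libraries of the groups, with a dKO-E SD of 34.2 CPM (-1.53, SE 0.096, adjusted p = 4.90e-15). Nrgn, a calmodulin-binding protein of dendrites, fell from 20.7 ± 2.56 to 6.84 ± 2.51 CPM (-1.59, adjusted p = 0.00278, and 0.0537 without control 1 and 3). Camk2d, a calmodulin-dependent kinase, was the one to rise (0.78, adjusted p = 0.0116), with dKO-E 1 at 139 CPM above the other 3 at 69.6 to 96.8 CPM.

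Receptors for the fast transmitters that passed were also mostly lower. Of 24 glutamate receptor genes 11 fell and 1 rose (median -0.26), and 7 and 1 both without control 1 and 3 and without dKO-E 3 and 4. The exception was Gria1, the AMPA receptor subunit GluA1 (chromosome 11, 57011387 to 57330244), at 854, 796, 827 and 793 CPM in control and 1596, 1568, 1450 and 1453 CPM in dKO-E. Its lowest dKO-E library was at 1450 CPM and its highest control at 854 CPM (0.89, SE 0.092, adjusted p = 1.55e-09). The metabotropic receptor genes Grm3 (500 ± 36.2 to 209 ± 31.0 CPM, -1.25) and Grm7 (1033 ± 83.1 to 439 ± 60.3 CPM, -1.24) led the falls. Of 15 GABA receptor and chloride transporter genes 8 fell and 2 rose (median -0.30), and 4 and 2 without control 1 and 3. The excess of falls in this list was not kept elsewhere, with 3 falls and 2 rises with library totals and 2 of each without dKO-E 3 and 4. Gabra5 (-0.90) and Gabra3 (-0.57) were among the falls, while the subunit gene Gabra2 was at 236, 212, 209 and 194 CPM in control and 316, 364, 328 and 317 CPM in dKO-E. Gabra2 thus rose without overlap (0.64, adjusted p = 1.57e-05). Of 23 neuronal cytoskeleton genes 13 fell and none rose (median -0.31), and 11 fell without control 1 and 3 and 8 without dKO-E 3 and 4, while library totals gave 9 falls and 3 rises. The neurofilament genes Nefl (-0.93) and Nefm (-0.93) led them, with Ank2, the scaffold of axons, from 2331 ± 112 to 1569 ± 46.8 CPM (-0.57).

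Ion channel families were split by member. Of 74 potassium channel and channel-associated genes 17 fell and 9 rose (median -0.06), which became 12 and 13 with library totals and 11 and 5 without control 1 and 3. Kcnh1, a voltage-gated channel of the EAG family, was at 89.0, 79.3, 92 and 92.5 CPM in control and 44.4, 25.9, 25.8 and 21.3 CPM in dKO-E. Its highest dKO-E library was at 44.4 CPM and its lowest control at 79.3 CPM (-1.62, SE 0.170, adjusted p = 1.28e-08). Its relative Kcnh5 fell as well (-1.07). Of 22 calcium channel genes 10 fell and 2 rose (median -0.26), with Cacnb2 among the rises and among the falls the T-type channels Cacna1i (-0.79) and Cacna1g (-0.65). Of 12 sodium and HCN channel genes 4 fell and none rose (median -0.30). Scn9a, the sodium channel Nav1.7, was at 67.1, 67.6, 63.1 and 52.7 CPM in control and 24.2, 18.6, 15.2 and 18.5 CPM in dKO-E. That is a fall of more than 2-fold between any pair of libraries (-1.74, SE 0.166, adjusted p = 2.33e-10). Scn2a (333 ± 8.4 to 209 ± 4.77 CPM, -0.67) fell less. Of 24 genes listed for TRP and other cation channels and related proteins, 9 fell and 6 rose (median -0.16), and 7 and 3 without control 1 and 3. Trpc5 was at the low end, and Itprid1, which encodes a receptor-interacting protein, Tmem176b and Tpcn2 were at the high end. Of 27 neuromodulator receptor genes 9 fell and 2 rose, and Hcrtr2, Htr1f, Ntsr1 and the neuropeptide Y receptor gene Npy1r (-1.58) were among those that fell. Of 15 granin and neuropeptide genes 4 fell and none rose. Among them Scg2, a granin, was at 12.0, 14.4, 15.1 and 17.6 CPM in control and 7.18, 7.29, 5.47 and 7.27 CPM in dKO-E (-1.11, adjusted p = 0.00340).

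**Figure D4:**
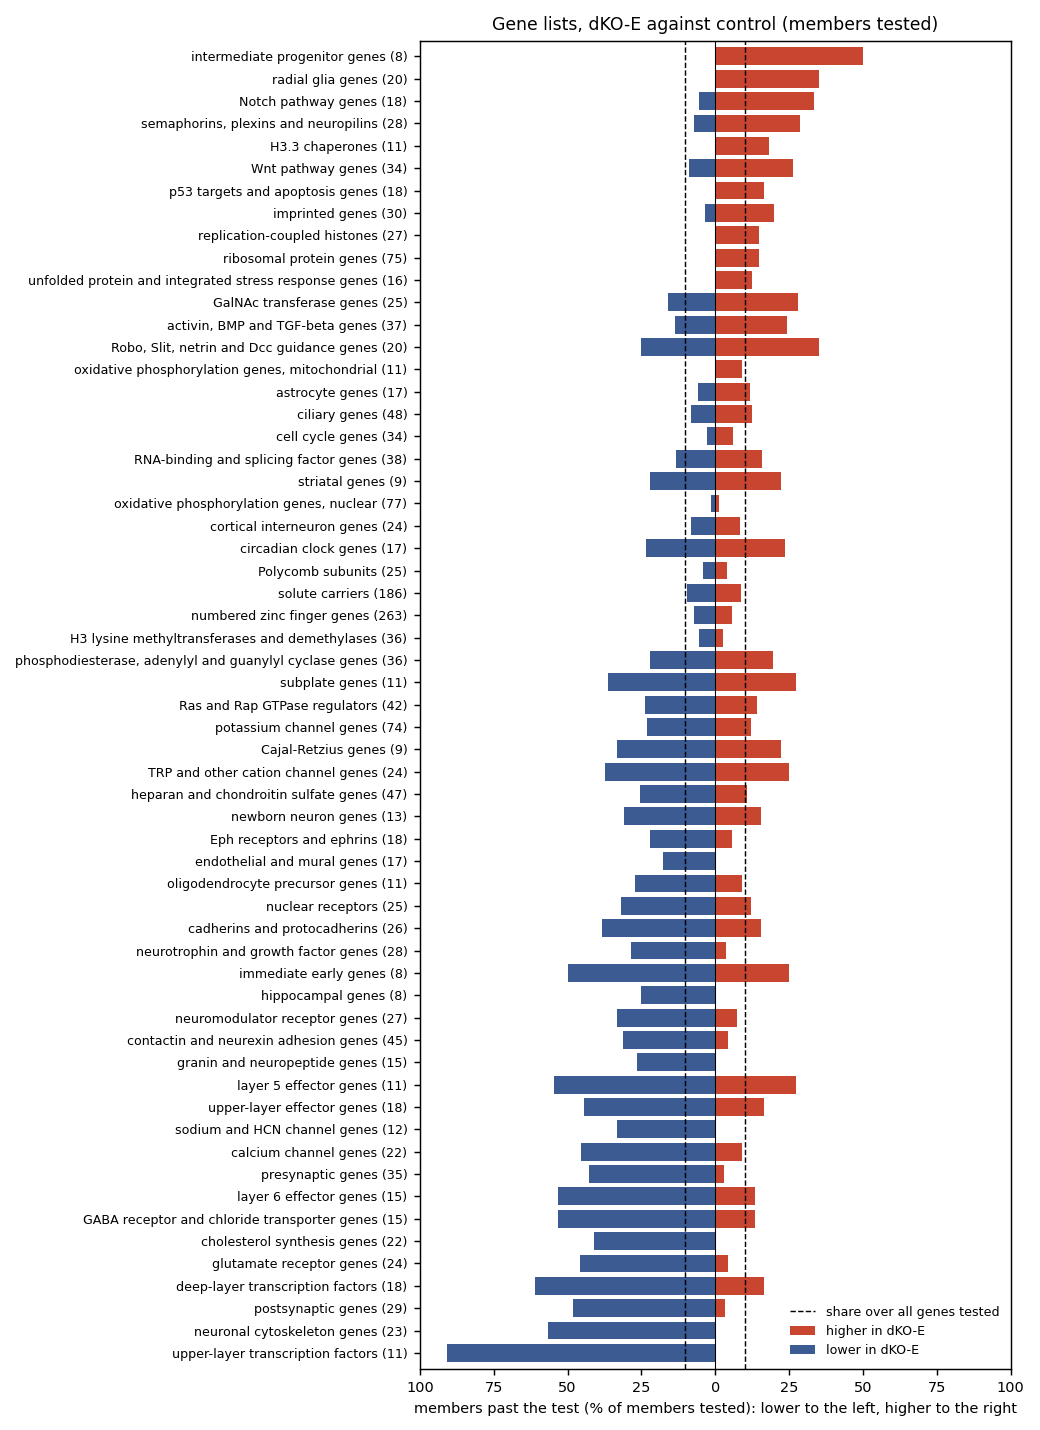
Share of tested members (x axis, percent) of gene lists with 8 or more members tested that were higher (red, to the right) or lower (blue, to the left) in dKO-E, with the number tested in brackets and dashed lines at the share over all genes, 10.1% in each direction. Upper-layer transcription factors are at the bottom with 10 of 11 lower, and intermediate progenitor genes at the top with 4 of 8 higher.

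Axon guidance genes changed in both directions, by family. Of 20 genes of the Robo, Slit, netrin and Dcc group 7 rose and 5 fell (median 0.16), the same counts as without control 1 and 3. Slit3, a repellent ligand, was at 171, 154, 206 and 119 CPM in control and 634, 511, 411 and 426 CPM in dKO-E. Both groups were broad, and the lowest dKO-E library was nearly 2-fold above the highest control (1.60, SE 0.304, adjusted p = 0.00489). Slit1 rose from 111 ± 11.2 to 200 ± 24.8 CPM (0.83). Unc5c, a netrin receptor that mediates repulsion, was at 815, 572, 701 and 556 CPM in control and 249, 315, 334 and 319 CPM in dKO-E. It was lower in all 4 dKO-E libraries (-1.12, SE 0.125, adjusted p = 2.97e-07). Of 28 semaphorin, plexin and neuropilin genes 8 rose and 2 fell (median 0.10), and 4 and 2 without control 1 and 3. Sema5b rose from 116 ± 12.9 to 247 ± 16.2 CPM (1.09), and Sema3e fell from 27.9 ± 4.26 to 11.7 ± 1.82 CPM (-1.29). Of 18 Eph receptor and ephrin genes 4 fell and 1 rose, with Efna5, Epha7 (-0.79), Epha4 (-0.51) and Ephb2 (-0.41) lower. Of 26 cadherin and protocadherin genes 10 fell and 4 rose (median 0.01). Cdh4 was the largest rise and Pcdh15, a protocadherin with known roles in hair cells, fell from 781 ± 58.3 to 305 ± 72.5 CPM (-1.37). Of 45 contactin and neurexin adhesion genes 14 fell and 2 rose (median -0.18), the falls including Cntn4 (-1.20) and Lrrtm2, an organiser of excitatory synapses (-1.17).

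Secreted signals and their receptors were also split. Of 37 activin, BMP and TGF-beta genes 9 rose and 5 fell (median 0.13), and without control 1 and 3 the counts were 4 and 4. Smad6 and the ligand Tgfb2 (28.3 ± 5.53 to 53.1 ± 5.41 CPM, 0.91) rose, while Inhba and the activin-type receptor gene Acvr1c (-1.37) fell. Of 34 Wnt pathway genes 9 rose and 3 fell (median 0.28), and 4 and 1 without control 1 and 3. Lef1, a transcription factor that carries the Wnt signal into the nucleus (chromosome 3, 131110471 to 131224356), was at 10.2, 10.1, 8.21 and 10.8 CPM in control and 40.5, 32.4, 30.9 and 26.3 CPM in dKO-E. The lowest dKO-E library was more than 2-fold above the highest control (1.71, SE 0.204, adjusted p = 3.41e-08). Ror2, a receptor for noncanonical Wnts, was at 35.3, 40.5, 34.1 and 32.5 CPM in control and 84.9, 90.4, 96.9 and 85.6 CPM in dKO-E. It rose without overlap (1.34, SE 0.121, adjusted p = 7.62e-11). The Wnt inhibitor gene Nkd1 rose as well (1.14). Of 18 Notch pathway genes 6 rose and 1 fell (median 0.40), and 4 and 1 without control 1 and 3. With Notch2 there rose Rbpj, the nuclear effector of the pathway (87.4 ± 6.67 to 128 ± 14.7 CPM, 0.55), while the coactivator gene Maml2 fell from 520 ± 55.7 to 279 ± 13.9 CPM (-0.90). Of 28 neurotrophin and growth factor genes 8 fell and 1 rose (median -0.21). Met, the receptor of hepatocyte growth factor, fell with Ntf3 (46.8 ± 8.29 to 15.1 ± 4.26 CPM, -1.66), and so did Ntrk2, the BDNF receptor TrkB (903 ± 50.7 to 552 ± 24.7 CPM, -0.71).

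Inside the cell, both subunits of the enzyme that makes cyclic GMP in response to nitric oxide were lower. Gucy1a1, the alpha subunit of the guanylyl cyclase that senses nitric oxide (chromosome 3, 82092427 to 82145789), was at 164, 142, 181 and 156 CPM in control and 30.7, 34.4, 36.0 and 50.3 CPM in dKO-E. Its lowest control was over 2-fold above its highest dKO-E library (-2.09, SE 0.159, adjusted p = 4.66e-10). Gucy1b1, the beta subunit of the same enzyme, was at 70.6, 59.6, 66.9 and 77.0 CPM in control and 32.0, 26.7, 22.3 and 25.2 CPM in dKO-E. It fell without overlap (-1.39, SE 0.145, adjusted p = 1.98e-09). In the wider list of 36 phosphodiesterase, cyclase and cyclic nucleotide kinase genes 8 fell and 7 rose, which turned to 6 and 9 with library totals, with Pde1c and Pde11a (1.67) as the largest rises. Of 25 nuclear receptor genes 8 fell and 3 rose (median -0.16). Besides Nr4a2 and Rorb these included Esr1, the estrogen receptor (-1.83), and Nr4a3 (84.2 ± 9.45 to 33.2 ± 10.8 CPM, -1.34). Nr2f2, a factor of ventral and caudal forebrain cells, rose unevenly, with 66.0, 39.7, 28.5 and 52.6 CPM in dKO-E against 18.0 ± 5.50 CPM in control (1.33, adjusted p = 0.0120, and 0.119 without control 1 and 3). Of 17 circadian clock genes 4 rose and 4 fell, against 1 and 3 without control 1 and 3, with Per2 up (0.79) opposite to Npas2. Of 8 immediate early genes that passed the filter 4 fell and 2 rose, and Ier5 was the largest rise (10.2 ± 1.32 to 30.6 ± 6.19 CPM, 1.58). Of 42 Ras and Rap regulators 10 fell and 6 rose, and the paralogs Rasgrf1 and Rasgrf2 moved in opposite directions (1.68 and -1.59).

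Metabolic and RNA-binding genes gave a mixed picture. Of 22 cholesterol synthesis genes 9 fell and none rose (median -0.49), and 6 fell without control 1 and 3. Fdft1, squalene synthase, was at 166, 158, 132 and 157 CPM in control and 83.6, 90.8, 80.5 and 63.2 CPM in dKO-E. The groups were separate, with dKO-E 4 the lowest (-0.94, SE 0.123, adjusted p = 4.25e-07). Msmo1 (-1.22) and Hmgcs1 (-0.90), enzymes of the same pathway, fell as well. Of 47 heparan and chondroitin sulfate genes 12 fell and 5 rose (median -0.11). Gpc5, Hs6st2, Sulf1 and Sulf2 (74.9 ± 12.6 to 25.7 ± 4.02 CPM, -1.56) fell, while Gpc3 and Chst8 rose. Of 25 GalNAc transferase and related genes 7 rose and 4 fell, against 3 and 4 without control 1 and 3, with Galnt14 (0.90), Galnt13 (0.86) and Galnt10 (0.78), which start O-linked sugar chains, higher. Among 38 RNA-binding and splicing genes 6 rose and 5 fell, which became 14 and 3 with library totals and 3 and 3 without control 1 and 3. The neuronal factors Celf2, at 9675, 8658, 8837 and 8212 CPM in control and 4484, 5307, 5326 and 5096 CPM in dKO-E, and Rbfox1, at 5618, 5844, 6069 and 5741 CPM in control and 2912, 3605, 3675 and 3313 CPM in dKO-E, were abundant in both groups. Both were lower in every dKO-E library (-0.81 and -0.78, adjusted p = 2.56e-08 and 2.40e-07), and Msi2, an RNA-binding protein of progenitors, rose (0.43).

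Several lists stood near or below the 20.2% of all genes. Of 263 numbered zinc finger genes 15 rose and 19 fell (12.9% called), which became 23 and 6 with library totals and 3 and 3 without control 1 and 3. Of 186 solute carriers tested 16 rose and 18 fell (18.3%), and 26 and 13 with library totals and 8 and 9 without control 1 and 3. Of 77 nuclear genes of oxidative phosphorylation 1 rose and 1 fell (2.60%), and of 48 ciliary genes 6 rose and 4 fell (20.8%), the last becoming 1 and 1 without control 1 and 3. Of 75 ribosomal protein genes 11 rose and none fell (14.7%, median 0.17), and 3 rose without control 1 and 3 and 5 without dKO-E 1. Rps2, a protein of the small subunit, was among them (33.6 ± 5.78 to 60.8 ± 5.15 CPM, 0.84, adjusted p = 8.24e-05). Of 30 imprinted genes, expressed from a single parental copy, 6 rose and 1 fell (23.3%, median 0.15). Plagl1, a zinc finger factor, was at 35.0, 33.5, 27.2 and 26.9 CPM in control and 61.4, 76.2, 64.9 and 74.9 CPM in dKO-E. Every dKO-E library was above every control (1.17, adjusted p = 1.01e-08). Of 16 unfolded protein and stress response genes 2 rose and none fell (12.5%), and without control 1 and 3 none rose.

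Genes of other cell types in the tissue were examined because they are outside the Emx1 lineage or rare at birth. Of 24 cortical interneuron genes 2 rose and 2 fell (16.7% called, median -0.01). The defining markers Gad1, Gad2 and Lhx6 did not pass, at log2 fold changes of 0.15, 0.03 and 0.07 (adjusted p = 0.483, 0.909 and 0.759). Of 9 Cajal-Retzius genes, from the earliest neurons of the cortical surface, 3 fell and 2 rose, which turned to 2 and 3 with library totals and to 4 and 1 without dKO-E 1, and was 2 and 0 without control 1 and 3. Ndnf was at 28.3, 31.4, 31.1 and 25.3 CPM in control and 14.4, 8.51, 7.03 and 7.27 CPM in dKO-E. It was lower in every dKO-E library, with dKO-E 1 the highest of them (-1.69, SE 0.213, adjusted p = 1.10e-07). Reln, the reelin gene of the same cells and of interneurons, fell from 400 ± 32.0 to 267 ± 40.0 CPM (-0.59), and Ebf3 rose (0.93, adjusted p = 0.00860, and 0.0627 without control 1 and 3). Of 17 astrocyte genes 2 rose and 1 fell (17.6% called), Aldh1l1 being the largest rise (18.3 ± 3.77 to 34.1 ± 7.93 CPM, 0.89), and the defining marker Aqp4 did not pass (-0.18, adjusted p = 0.758). Of 11 oligodendrocyte precursor genes 3 fell and 1 rose. Tnr, a matrix protein that neurons also express, fell from 660 ± 63.0 to 273 ± 24.7 CPM (-1.27). Pdgfra, a receptor that marks these precursors, fell from 32.2 ± 2.46 to 19.9 ± 3.85 CPM (-0.71, adjusted p = 0.00340). Their markers Olig1 (-0.16, adjusted p = 0.793) and Olig2 (-0.40, adjusted p = 0.370) did not pass. Of 17 endothelial and mural genes 3 fell and none rose (17.6% called, against 20.2% of all genes), with Ets1 at -1.14. The endothelial markers Cldn5 and Pecam1 did not pass (adjusted p = 0.614 and 0.997). Of 6 meningeal and fibroblast genes tested Igfbp2 rose (26.3 ± 3.23 to 39.0 ± 1.56 CPM, 0.57) and Pdgfra fell, while Col1a1 was at 17.0 CPM in dKO-E 1 and at 4.05 CPM or less in the other 7 libraries. The part of these cells in the results above was not tested.

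Finally, dKO-E was set against dKO-N, which asks whether the deletion from progenitors onward differs from the later, neuronal one. Driver and time of deletion cannot be told apart in this design. Of the 11076 genes 758 differed (6.84%), with 345 higher in dKO-E (3.11%) and 413 lower (3.73%), and the count was 199 without dKO-E 3 and 4. Without dKO-N 4 the count was 300. This library was the deepest of its group, with 3502017 counts in genes, where dKO-N 1 to 3 held 722080 to 1046240. It also lay closer to control on the first principal component axis, at 0.05, while dKO-N 1 to 3 were at 9.41 to 11.84. Why the count fell without it was not tested. Signed values in brackets are here log2 fold changes of dKO-E minus dKO-N. The named genes are those with the smallest adjusted p that also differed between dKO-E and control. Pou3f2, the upper-layer factor, was at 75.1, 100, 102 and 87.3 CPM in dKO-E, 182, 166, 182 and 164 CPM in dKO-N and 170, 166, 152 and 150 CPM in control. The dKO-E values lay below all others (log2 fold change dKO-E against dKO-N -0.90, SE 0.106, adjusted p = 1.33e-06). Ndnf was at 27.2, 29.8, 22.1 and 34.5 CPM in dKO-N, against 14.4, 8.51, 7.03 and 7.27 CPM in dKO-E (difference -1.74, SE 0.227, adjusted p = 8.82e-06). Luzp2 (-0.87) and Grm3 (-0.75) also lay below dKO-N. Syt6, a synaptotagmin of layer 6, was at 56.2, 84.7, 89.1 and 90.6 CPM in dKO-E and 159, 130, 141 and 185 CPM in dKO-N, without overlap, and at 65.3, 52.7, 59.6 and 66.6 CPM in control (-0.95, adjusted p = 1.86e-05). Its difference from control (0.40, adjusted p = 0.0286) was lost without control 1 and 3 (adjusted p = 0.126), without dKO-E 3 and 4 (adjusted p = 0.455) and when some single libraries were left out. Luzp1 was at 88.8, 94.8, 111 and 108 CPM in dKO-E, 65.3, 50.4, 52.4 and 66.1 CPM in dKO-N and 56.5, 61.8, 58.3 and 61.5 CPM in control, which placed dKO-E above both (0.75, SE 0.123, adjusted p = 2.07e-04). Rassf8 (1.27), Greb1l (0.86), Nebl, a protein of actin filaments (0.74), and the choline transporter-like gene Slc44a5 (0.62) were higher in dKO-E as well. All 10 of these genes passed against dKO-N also without dKO-E 3 and 4.

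Among the layer factors, Rorb (difference -0.56), Cux1 (-0.70) and Foxp2 (-0.54) lay below dKO-N, at adjusted p of 0.0372 or less. Foxp2 overlapped between the 2 knockouts. Its call was lost without dKO-E 3 and 4 (adjusted p = 0.241) and in 5 of the fits that left out 1 library. In dKO-N 4 Foxp2 was at 416 CPM, above dKO-N 1 to 3 at 216 to 296 CPM. Cux1 was at 511 CPM there, above dKO-N 1 to 3 at 353 to 434 CPM. Rorb was even across dKO-N, at 191 to 199 CPM. Nr4a2, Npas2, Prkch, Kcnj2, Trpc5, Ttc7 and Nkain3, which had moved strongly against control, did not pass this test, at differences of -0.39, -0.14, -0.05, -0.83, -0.42, 0.48 and 0.14. Their adjusted p ran from 0.188 to 0.927, which does not show that the knockouts were alike in them. In the other direction, Scg2 was at 1.36, 0, 2.76 and 0.601 CPM in dKO-N libraries, below all dKO-E values (adjusted p = 7.59e-04). No dKO-N library reached 3 counts of it, so no fold is given. Colec12 (0.96), Itprid1 (1.44) and Prkd1 (0.49) were higher in dKO-E than in dKO-N as well as above control, and without dKO-E 3 and 4 Prkd1 kept this call while Colec12 and Itprid1 did not (adjusted p = 0.0285, 0.0734 and 0.0613).

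**Figure D5:**
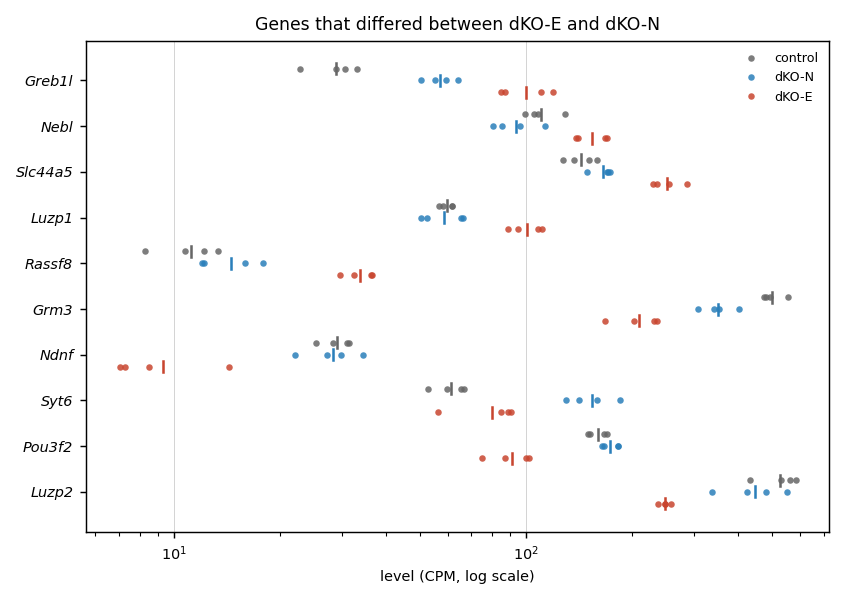
Level in CPM (log axis) of the 5 genes above and the 5 genes below dKO-N with the smallest adjusted p, in the 4 control (grey), 4 dKO-N (blue) and 4 dKO-E (red) libraries, with short bars at the means. In Luzp1 and Pou3f2 the dKO-N points lie near those of control and the dKO-E points apart from both.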

How the data were processed

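RNA from P0 mouse cortex was measured in 12 libraries, and the 4 control and 4 dKO-E libraries are described here. Each deposited table gives whole-number counts of genes. STAR, UMI-tools, HTSeq and the mm10 build are named per the submitters' processing notes, with no versions or settings in the sources used here. Unique molecular identifiers were part of the libraries, and summary lines that name no gene were left out, so that 86.5% to 88.4% of the total of each of the 8 libraries was used.

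Genes were kept by filterByExpr with a minimum count of 10, scaled by TMM and compared by the quasi-likelihood method of edgeR (edgeR 4.0.16, R 4.3.3) on all 12 libraries with group as the only term, with Benjamini-Hochberg adjustment over all genes tested and a threshold of 0.05. Means are given with SD over 4 libraries. Names came from GENCODE M21, which matched 99.6% of the gene identifiers. Replicates of a group differed by more than sampling noise. Libraries of different groups share replicate numbers, but the correlation of their deviations from the group means was -0.061 to 0.013, so the numbers were not taken to pair them. The procedure was tested on simulated data, with on average 10725 genes tested. Of genes changed 1.5-fold 64.2% were recovered and of those changed 2-fold 93.4%, and 3.9% of the calls were false. The changed genes were drawn from well-counted genes only and were far fewer than the genes called here. Every simulated gene had the same spread, a biological coefficient of variation of 10.6%. The rates may therefore not hold for genes with low counts or a wider spread.

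The text draws on the 20 largest rises and falls, the 8 largest of each at an average log2 CPM of at least 7, up to 4 members of each list past the threshold, and the 5 genes in each direction that differed most from dKO-N. Predicted genes were left out of all of these. Only the largest rises and falls were also required not to overlap between dKO-E and control. The lists and members were chosen with earlier results of these data known. Alternatives were other scalings and filters, the 8 libraries alone, a replicate block, DESeq2 1.42.0, counts thinned to 722080 per library, and leaving out libraries. The percentages of each list are descriptions, and no list was tested. Some genes and 1 list that the rule names are not reported here.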

Additional observations from a re-analysis of the deposited data

Results flagged for a closer look

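In 320 groups of 4 libraries examined over the genes described, 9 had 1 library set apart from the other 3 by a gap beyond Dixon's 95% critical value, where chance gives about 1 in 20. In dKO-E 1, Pde1c was at 159 CPM against 176 to 177 CPM in the other dKO-E libraries, Hs6st2 at 136 CPM against 174 to 179 CPM, and the neurofilament gene Nefl at 26.1 CPM against 15.6 to 17.3 CPM. Scg2 was at 5.47 CPM in dKO-E 3 against 7.18 to 7.29 CPM. Among controls, Hcrtr2 was at 22.4 CPM in control 2 against 16.2 to 16.8 CPM, and Acvr1c at 11.2 CPM in that library against 14.7 to 15.2 CPM. Sphkap was at 107 CPM in control 1 against 75.9 to 78.6 CPM, Hist2h2ac at 17.3 CPM in control 3 against 7.75 to 8.48 CPM, and Grm7 at 909 CPM in control 4 against 1063 to 1083 CPM. Of these genes, Nefl and Scg2 missed the threshold without dKO-E 3 and 4.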

How the results depend on the processing

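Against control, where 2238 genes differed, 1215 were called without control 1 and 3 (558 higher, 657 lower), 1225 without dKO-E 3 and 4 (571 and 654) and 1223 with counts thinned to 722080 per library (526 and 697), of which 1145, 1156 and 1134 were among the 2238. Scaling by library totals gave 1988 higher and 701 lower genes. RLE scaling, other filters, the 8 libraries alone and DESeq2 gave 1750 to 2879 changed genes, of which those of DESeq2 shared 1731 with the 2238. Leaving out 1 library gave 1699 to 1977.

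For dKO-E against dKO-N the counts were 199 without dKO-E 3 and 4 (101 higher, 98 lower), 324 with thinned counts (150 and 174), and 272 lower with library totals. Leaving out 1 library gave 300 to 1036 changed, 140 to 451 higher and 160 to 585 lower, with the lowest values without dKO-N 4 and the highest without dKO-N 2. DESeq2 gave 542 changed.

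The replicate number as a block gave 1974 genes changed against control (978 higher, 996 lower), and against dKO-N 500 changed and 253 lower. Libraries with the same number did not deviate together, and 0 of 4 dKO-E libraries correlated best with their own number, so they share only a number.

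Of 232 genes named by the rule that passed, 188 passed in every fit that left out 1 library, 176 without control 1 and 3 and 177 without dKO-E 3 and 4. Among genes in the text that had passed against control, Aldh1l1, Asf1a, Epha4, Gabra3, Igfbp2, Mdm2, Nefl, Nrgn, Nrp2, Pdgfra, Phgdh, Rasgrf1, Scg2, Setd5, Sox9 and Syt6 missed the threshold without dKO-E 3 and 4, in which Y-linked genes summed to 405 and 153 CPM against 1.96 CPM or less in the other 6 libraries. Of 132 counts of list members higher or lower, 39 moved by more than 1.5 times with library totals, 56 without control 1 and 3, 53 without dKO-E 3 and 4 and 48 with thinned counts. The causes were not tested. Where 3 counts are 1.06 to 1.96 CPM, falls of genes near that level were not detectable.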
